A study of Mus musculus with 12 samples.

Results

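The transcription factors Atf3, Jun, Sox11, Klf7, Klf6, Klf9, Klf4, Smad1, Myc and Cebpd, all tied to axon regeneration, were followed in mouse dorsal root ganglia over the first week after nerve injury. They were chosen by gene symbol, and all 10 were found among the 24060 symbols of the deposited tables. The ganglia, where the cell bodies of sensory neurons lie, were taken from C57BL/6J males, adults of 9 to 10 weeks. Libraries of 4 groups with 3 replicates each were compared: naive mice without surgery, and mice at days 1, 3 and 7 after spared nerve injury, a model that ties off and cuts 2 sciatic nerve branches, the common peroneal and the tibial, and leaves the sural branch whole. All groups share strain, sex and tissue. Sham surgery was not analysed here, which means that effects of the operation and of the nerve lesion cannot be told apart. The ganglia hold neurons of the spared sural branch beside injured ones. Whether each library stands for 1 animal or for several is not stated in the labels; the p-values therefore speak only of the spread among these libraries, which may be technical.

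Sensory neurons of the peripheral nervous system, unlike most neurons of the brain and spinal cord, can regrow a cut axon, and they switch on a set of transcription factors when they do. Jun is phosphorylated by kinases of the JNK family, which the kinase DLK activates when an axon is cut, and it binds DNA as a partner of other AP-1 proteins or of ATF proteins such as Atf3. Sox11 belongs to the SoxC group of developmental factors, Smad1 carries signals of bone morphogenetic proteins to the nucleus, and Myc and Cebpd are factors of growth and of the acute-phase response. The Krüppel-like factors share a zinc finger DNA-binding domain, and in work on retinal and cortical neurons Klf6 and Klf7 favoured axon growth while Klf4 and Klf9 restrained it.

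Levels are the deposited values read as RPKM, reads per kilobase of gene scaled to library size. Library sizes recovered from the steps between values ran from 13627000 to 17953000 reads, and replicates correlated across genes with r of 0.953 to 0.976 (Pearson, log2 values). Presence of sensory neuron transcripts was checked with 14 markers, of which none was at 0 in any group and whose summed level ran from 1860 to 3860 RPKM. Such presence does not show that their levels were stable. Naive replicate 1 and day 7 replicate 2 held more skeletal muscle transcripts than the others (summed level of 8 markers 39.1 and 29.3 RPKM, against at most 7.21 RPKM elsewhere). In whole ganglia, fewer cells of a type and less RNA per cell cannot be told apart.

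All 10 genes are annotated as protein-coding in GENCODE M21 on mm10. Values are given by gene symbol, and which exons they cover is not stated. Atf3 lies on chromosome 1 from 191170296 to 191218039 and Klf7 on chromosome 1 from 64029447 to 64122282. Jun lies on chromosome 4 from 95049034 to 95052222, Klf4 on chromosome 4 from 55527143 to 55532466 and Smad1 on chromosome 8 from 79338395 to 79399518. Sox11 occupies 27334264 to 27342574 of chromosome 12. Klf6 lies on chromosome 13 from 5861482 to 5870394, Myc on chromosome 15 from 61985391 to 61990374, Cebpd on chromosome 16 from 15887286 to 15891031 and Klf9 on chromosome 19 from 23141226 to 23168134. Klf7 and Klf9 overlap the microRNA genes Mir6899 and Mir1192 on their own strand. On the other strand, Jun is overlapped by the antisense gene Junos, Cebpd by Spidr, Klf7 by Gm26649 and Gm13748, and Atf3 by Gm24748. Whether counting used strand is not stated, so reads of such pairs cannot be told apart.

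Promoter windows from RefSeq (GRCm38.p6, 250 bases before to 50 bases after the annotated start) were found for 8 of the 10 genes. Those of Atf3, Jun, Sox11 and Klf6 are shown because these genes rose at every day measured, and because each holds a match to an AP-1, ATF or C/EBP-ATF sequence. Each is written 5′ to 3′ on the gene's strand, with motif matches in capitals. They lie at chr1:191183284-191183583 (minus strand), chr4:95052173-95052472 (minus), chr12:27342669-27342968 (minus) and chr13:5861239-5861538 (plus).
Atf3: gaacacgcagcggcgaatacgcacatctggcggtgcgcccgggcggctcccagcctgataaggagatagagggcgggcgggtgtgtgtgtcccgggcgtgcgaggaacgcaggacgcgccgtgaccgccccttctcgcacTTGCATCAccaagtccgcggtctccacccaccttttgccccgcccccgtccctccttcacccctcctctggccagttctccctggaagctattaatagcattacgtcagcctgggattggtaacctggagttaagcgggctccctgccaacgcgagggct
Jun: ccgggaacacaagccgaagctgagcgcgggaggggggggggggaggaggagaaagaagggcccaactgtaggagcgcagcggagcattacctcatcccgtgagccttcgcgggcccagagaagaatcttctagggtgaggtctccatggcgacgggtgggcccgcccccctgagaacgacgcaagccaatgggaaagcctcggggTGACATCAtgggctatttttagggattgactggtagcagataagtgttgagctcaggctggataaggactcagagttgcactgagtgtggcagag
Sox11: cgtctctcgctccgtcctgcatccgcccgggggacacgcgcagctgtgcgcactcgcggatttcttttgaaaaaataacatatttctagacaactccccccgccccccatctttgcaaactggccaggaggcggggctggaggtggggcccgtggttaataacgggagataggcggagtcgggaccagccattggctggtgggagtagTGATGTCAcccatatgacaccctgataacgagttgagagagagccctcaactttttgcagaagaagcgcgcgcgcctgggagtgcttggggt
Klf6: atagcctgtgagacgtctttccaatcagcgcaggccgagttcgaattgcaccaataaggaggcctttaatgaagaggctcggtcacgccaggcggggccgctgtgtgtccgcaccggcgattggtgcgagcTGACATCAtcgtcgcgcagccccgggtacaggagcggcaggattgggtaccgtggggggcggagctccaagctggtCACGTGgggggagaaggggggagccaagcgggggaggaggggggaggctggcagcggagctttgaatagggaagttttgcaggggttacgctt

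The motifs named here were searched on both strands, and a match describes letters, not a bound site. The AP-1-like octamer TGACATCA was found in 3 of the 8 windows, those of Jun (45 bases before the start), Sox11 (42 bases before the start, on the opposite strand) and Klf6 (119 bases before the start), and in 3.62% of 32851 windows of all genes. Atf3 held TTGCATCA, the composite sequence of C/EBP and ATF proteins, 110 bases before its start (0.895% of all windows). The heptamer TGANTCA, which covers the classical AP-1 site and also sequences with other middle bases, was found in the Klf9 window alone (7.81% of all windows), where it read TGAATCA and so was not the classical site, and the E-box CACGTG in those of Klf4 and Klf6 (7.15%). None of the 8 windows held TGACGTCA (1.79%), TTGCGCAA (0.183%) or the palindromic glucocorticoid response element (0.00913%). The annotated RefSeq start of Sox11 lies upstream of the GENCODE M21 gene, and the Atf3 gene in GENCODE M21 also extends upstream of the start used here.

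In the naive ganglion the factors covered a wide range of levels. Klf7 stood highest at 186 ± 12.5 RPKM (SD, n = 3), followed by Klf6 at 22.3 ± 0.448 RPKM and Smad1 at 15.3 ± 0.523 RPKM, with ranges that did not overlap. Jun at 8.92 ± 1.85 RPKM and Klf9 at 7.93 ± 0.9 RPKM overlapped, as did Sox11 at 3.65 ± 0.21 RPKM and Myc at 3.45 ± 0.759 RPKM. Below them stood Atf3 at 2.36 ± 0.0266 RPKM, Klf4 at 0.942 ± 0.138 RPKM and Cebpd at 0.566 ± 0.0463 RPKM. The gene length implied by the values limits this order. It was 1336 bases for Klf7 against 8131 exonic bases in GENCODE M21, and 3046 against 6262 bases for Smad1. For Klf9 it was 3263 against 4815 bases and for Cebpd 2260 against 3746 bases. For Jun, Klf4 and Sox11 the ratio was 0.998 to 1.02.

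After injury the order changed. Atf3, at rank 8 of the 10 in naive ganglia, was at rank 2 after Klf7 at each of days 1, 3 and 7, and Sox11 was at ranks 5, 4 and 4 on these days against rank 6 in naive ganglia. The place of Klf7 above Atf3 rests on its short implied length (ratio to the exonic length 0.164, against 0.917 for Atf3) and is uncertain. Atf3 overlapped Klf6 at day 7 and stood above it without overlap at days 1 and 3. Within each library the RPKM of Atf3 divided by that of Jun was 2.52, 2.8 and 2.18 at day 1, 3.17, 3.7 and 3.36 at day 3 and 2.87, 2.9 and 2.21 at day 7, against 0.212, 0.317 and 0.288 in naive replicates 1 to 3. Atf3 stood below Jun per length in every naive library and above it in every library after injury.

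**Figure D1:**
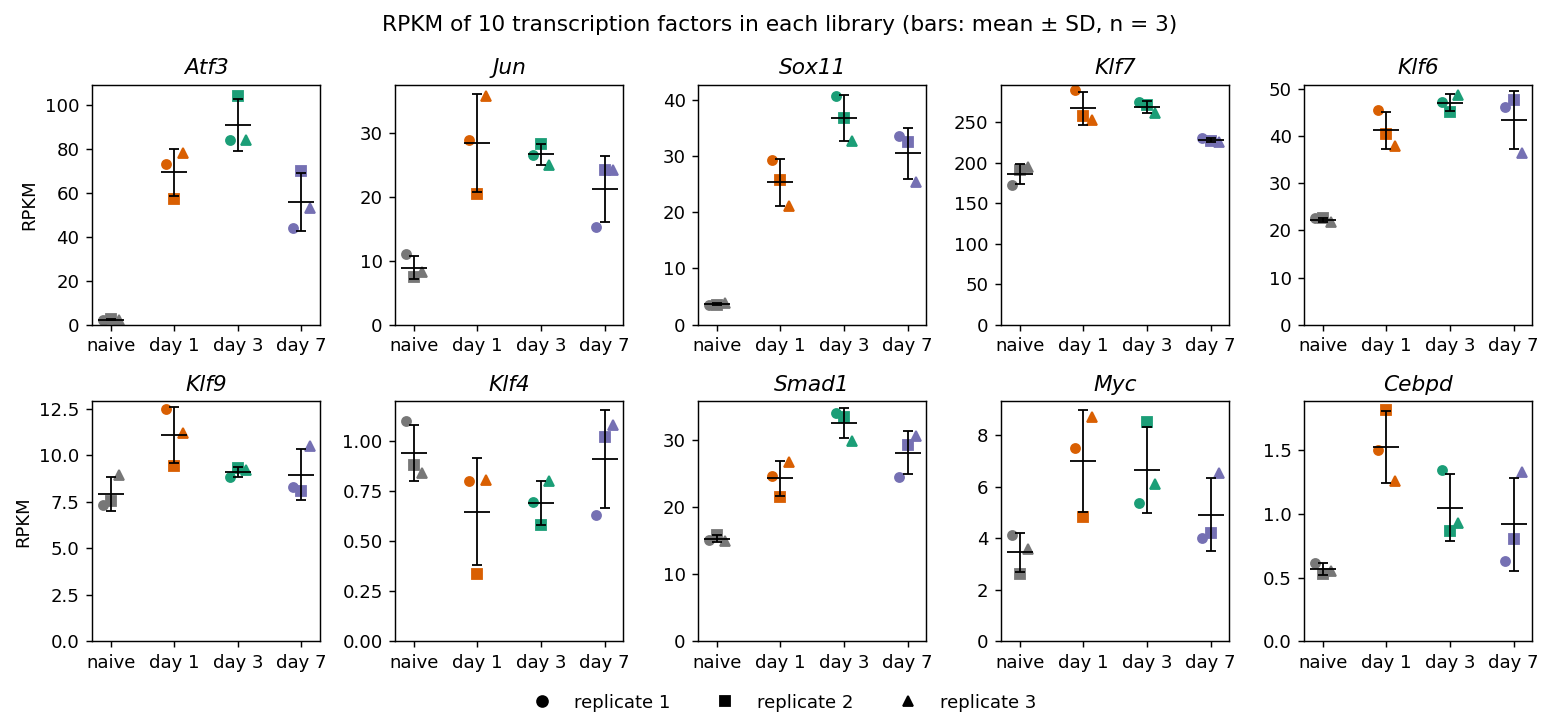
RPKM of the 10 factors (vertical axes, starting at 0) in the naive group and at days 1, 3 and 7 after injury; symbols are the 3 replicates, bars the mean ± SD. Atf3, Jun, Sox11, Klf7, Klf6, Smad1 and, narrowly, Cebpd show all 9 injured libraries above the 3 naive ones, while the Klf4 groups lie between 0.338 and 1.1 RPKM.

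At day 1, 8 of the 10 factors rose, none fell and 2 did not pass (limma, adjusted p under 0.05), where 3.43% of the 14195 genes tested were called, 2.6% rising and 0.831% falling. At day 3, 7 rose and none fell (5.67% of all genes were called, 3.72% rising and 1.95% falling), and at day 7, 5 rose and none fell (2.92% called, 2.32% rising and 0.599% falling). With 1 library left out the day 1 count was 5 to 8; it was 5 without naive replicate 1, 2 or 3 or without day 1 replicate 1. The median log2 fold change of the 10 was 0.9, 0.93 and 0.62 at days 1, 3 and 7, against -0.0055, 0.0017 and 0.0023 over all genes tested. In a test of all 4 groups together 5 factors passed (4.78% of all genes). Cebpd entered the test only through its injured libraries, since genes needed 1 RPKM in 3 libraries and it stood below that in naive ganglia, and Klf4 passed in exactly 3 libraries, so these counts describe the genes and support no statement about them as a set. Atf3, Jun, Sox11, Klf6 and Smad1 were called at each day, Klf7 and Myc at days 1 and 3 and Cebpd at day 1, while Klf9 and Klf4 were called at none.

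**Figure D2:**
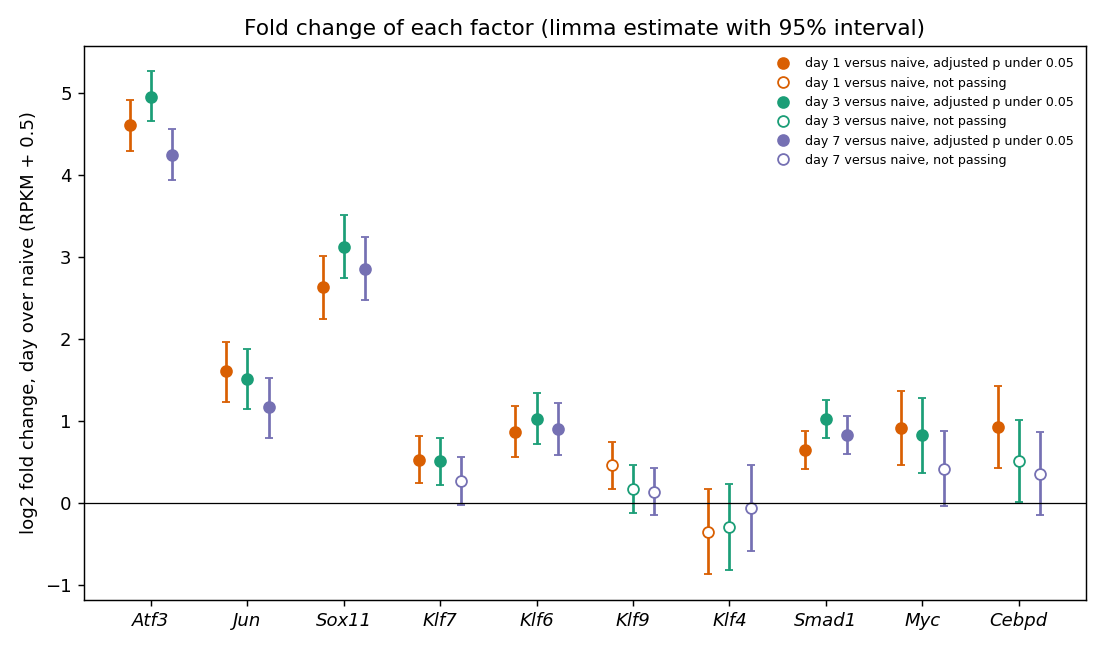
Log2 fold change over naive (vertical axis, log2(RPKM + 0.5) scale) of each factor at days 1, 3 and 7, with the 95% interval from limma; filled symbols have an adjusted p under 0.05. Atf3 lies between 4.25 and 4.96, Sox11 between 2.64 and 3.13 and Jun between 1.17 and 1.61, and the intervals of Klf4 include 0 at each day.

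The AP-1 and ATF factors Atf3 and Jun rose at each day. Atf3, which is induced by axotomy and many other stresses and dimerises with Jun, had 2.33, 2.38 and 2.37 RPKM in naive replicates 1 to 3, 72.9, 57.4 and 77.9 RPKM at day 1, 84.1, 104 and 84.1 RPKM at day 3 and 44.1, 70.1 and 53.3 RPKM at day 7. No injured library came near a naive one, and the day 3 libraries stood above those of day 1 and day 7 without overlap. The log2 fold change was 4.61 at day 1 (SE 0.14, adjusted p = 2.18e-10), 4.96 at day 3 (SE 0.14, adjusted p = 7.8e-11) and 4.25 at day 7 (SE 0.14, adjusted p = 6.72e-10). These rest on 66 to 79 recovered reads per naive library and 1406 to 3263 reads per injured library, and the means were 29.4, 38.5 and 23.7 times the naive mean.

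Jun, the c-Jun subunit of AP-1, had 11, 7.51 and 8.23 RPKM in naive replicates 1 to 3, 28.9, 20.5 and 35.7 RPKM at day 1, 26.5, 28.2 and 25.0 RPKM at day 3 and 15.3, 24.2 and 24.1 RPKM at day 7. All injured libraries stood above all naive ones, with the widest spread at day 1. It rose by 1.61 (SE 0.17, adjusted p = 8.51e-05), 1.51 (SE 0.17, adjusted p = 8e-05) and 1.17 (SE 0.17, adjusted p = 0.00108) on the log2 scale at days 1, 3 and 7. Of the pair, Atf3 had the larger log2 fold change at each day; the difference between the genes was not tested.

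Sox11, whose naive level was low, rose next to Atf3 in size. It had 3.5, 3.56 and 3.89 RPKM in naive replicates 1 to 3, 29.3, 25.7 and 21.1 RPKM at day 1, 40.7, 36.8 and 32.6 RPKM at day 3 and 33.6, 32.5 and 25.3 RPKM at day 7. The naive and injured libraries lay far apart, and those of day 3 lay above those of day 1 without overlap. Log2 fold changes were 2.64 (SE 0.18, adjusted p = 1.37e-06), 3.13 (SE 0.18, adjusted p = 1.36e-07) and 2.86 (SE 0.18, adjusted p = 4.52e-07) at days 1, 3 and 7, and the means were 6.94, 10.1 and 8.34 times the naive mean.

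Smad1, the receptor-regulated SMAD of the BMP pathway, showed a smaller rise. It stood at 15.1, 15.9 and 14.9 RPKM in naive replicates 1 to 3, at 24.7, 21.5 and 26.7 RPKM at day 1, at 34.1, 33.4 and 29.9 RPKM at day 3 and at 24.5, 29.2 and 30.6 RPKM at day 7. Naive libraries were tightly grouped below all others, and day 3 lay above day 1 without overlap. The log2 fold change was 0.65 at day 1 (SE 0.11, adjusted p = 0.00287), 1.03 at day 3 (SE 0.11, adjusted p = 3.66e-05) and 0.83 at day 7 (SE 0.11, adjusted p = 0.000415).

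The 4 Krüppel-like factors differed from each other. Klf6, which favours axon growth and is also induced by injury in other tissues, had 22.6, 22.6 and 21.8 RPKM in naive replicates 1 to 3, 45.6, 40.4 and 37.9 RPKM at day 1, 47.3, 45.1 and 48.8 RPKM at day 3 and 46.1, 47.6 and 36.4 RPKM at day 7. All injured libraries exceeded the naive ones, and the 3 days overlapped. Klf6 rose by 0.87 (SE 0.15, adjusted p = 0.0034), 1.03 (SE 0.15, adjusted p = 0.000619) and 0.91 (SE 0.15, adjusted p = 0.00257) at days 1, 3 and 7. The day 7 call was lost without the 2 libraries that held most muscle transcripts (adjusted p = 0.0617, log2 fold change 0.82).

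Klf7, named for its ubiquitous expression and needed for the growth of sensory axons in mouse embryos, had 172, 191 and 195 RPKM in naive replicates 1 to 3, 290, 258 and 253 RPKM at day 1, 275, 271 and 261 RPKM at day 3 and 230, 227 and 225 RPKM at day 7. Each injured group stood above naive without overlap, and in unscaled RPKM the day 7 libraries stood below those of days 1 and 3. In the scaled log2 values used for the tests, day 7 replicate 1 (7.99) stood above day 1 replicate 3 (7.92). It was level with day 3 replicate 3 (7.99). It rose by 0.53 at day 1 (SE 0.13, adjusted p = 0.045) and by 0.51 at day 3 (SE 0.13, adjusted p = 0.04), and at day 7 the difference was 0.27 (95% interval -0.02 to 0.56, adjusted p = 0.439). The day 1 call was lost without naive replicate 1, 2 or 3 (adjusted p = 0.187, 0.0871 and 0.106), day 1 replicate 1 or 2 (0.221 and 0.109), day 3 replicate 1, 2 or 3 (0.0536, 0.0698 and 0.0702) or day 7 replicate 2 (0.0588). The day 3 call was lost without naive replicate 1, 2 or 3 (adjusted p = 0.15, 0.0782 and 0.0902), day 3 replicate 1, 2 or 3 (0.129, 0.114 and 0.0864), day 1 replicate 1 or 2 (0.0547 and 0.055) or day 7 replicate 2 (0.0521), while the log2 fold change lay between 0.41 and 0.61 at both days with any 1 library left out.

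Klf9, which is induced by glucocorticoids and thyroid hormone and restrains axon growth in cultured neurons, did not pass at any day. It had 7.31, 7.52 and 8.97 RPKM in naive replicates 1 to 3, 12.5, 9.45 and 11.2 RPKM at day 1, 8.81, 9.32 and 9.22 RPKM at day 3 and 8.32, 8.08 and 10.5 RPKM at day 7. Only the day 1 libraries stood clear of the naive ones. The log2 difference from naive was 0.46 at day 1 (95% interval 0.17 to 0.75, adjusted p = 0.0901), 0.17 at day 3 (-0.12 to 0.46) and 0.14 at day 7 (-0.15 to 0.43). With array weights the day 1 difference passed (adjusted p = 0.00882), in 1 of 23 alternatives. That setting called 1844 of all genes at day 1, in place of 487. With 1 library left out the Klf9 difference passed in 0 of 12 fits.

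Klf4, a pluripotency factor that restrains axon growth in retinal neurons, was near the expression limit. It stood at 1.1, 0.881 and 0.844 RPKM in naive replicates 1 to 3, at 0.804, 0.338 and 0.805 RPKM at day 1, at 0.697, 0.582 and 0.801 RPKM at day 3 and at 0.631, 1.02 and 1.08 RPKM at day 7, on 15 to 55 reads per library. The libraries of days 1 and 3 lay below the naive ones and those of day 7 overlapped them. The log2 differences of -0.35 (95% interval -0.87 to 0.17, adjusted p = 0.561), -0.29 (-0.81 to 0.23, adjusted p = 0.607) and -0.062 (-0.58 to 0.46, adjusted p = 0.966) at days 1, 3 and 7 did not pass, and no difference was detectable at this depth. Groups without overlap were common among all genes: 11% lay higher and 11.7% lower at day 1, 13.8% and 12.7% at day 3, and 11% and 7.13% at day 7.

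Myc, a driver of growth and ribosome production, had 4.13, 2.63 and 3.6 RPKM in naive replicates 1 to 3, 7.51, 4.83 and 8.71 RPKM at day 1, 5.36, 8.54 and 6.1 RPKM at day 3 and 4.0, 4.22 and 6.55 RPKM at day 7. The libraries of days 1 and 3 stood above the naive ones, those of day 7 overlapped them, and the spread within groups was wide. It rose by 0.92 at day 1 (SE 0.21, adjusted p = 0.0283) and by 0.83 at day 3 (SE 0.21, adjusted p = 0.0347), and at day 7 the difference was 0.42 (95% interval -0.035 to 0.88, adjusted p = 0.443). The day 1 call was lost without naive replicate 1, 2 or 3 (adjusted p = 0.0524, 0.146 and 0.0754) or day 1 replicate 1 or 3 (0.139 and 0.116), and the day 3 call without naive replicate 1, 2 or 3 (0.0501, 0.171 and 0.0813) or day 3 replicate 1, 2 or 3 (0.0508, 0.164 and 0.0686). Both were lost without scaling between libraries (0.0809 and 0.0781).

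Cebpd, a factor of the acute-phase response that glucocorticoids and cytokines induce, had 0.617, 0.527 and 0.554 RPKM in naive replicates 1 to 3, 1.5, 1.82 and 1.26 RPKM at day 1, 1.35, 0.868 and 0.933 RPKM at day 3 and 0.63, 0.801 and 1.33 RPKM at day 7. Each injured group lay above naive, narrowly at day 7, and the values rest on 19 to 60 reads per library. It rose by 0.93 at day 1 (SE 0.23, adjusted p = 0.0445), while the differences of 0.51 at day 3 (95% interval 0.011 to 1.02, adjusted p = 0.268) and 0.36 at day 7 (-0.14 to 0.87, adjusted p = 0.593) did not pass. The day 1 call was lost without naive replicate 1, 2 or 3 (adjusted p = 0.11, 0.136 and 0.133), day 1 replicate 1, 2 or 3 (0.146, 0.154 and 0.0554), day 3 replicate 2 or 3 (0.0544 and 0.061) or day 7 replicate 2 (0.055).

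Between the days, limma called none of the 10 factors. For day 3 against day 1, where 0.507% of all genes were called, 4 factors had an unadjusted p under 0.05, as did 1337 of the 14195 genes, and voom called 0 of the factors. Day 3 minus day 1 was 0.5 for Sox11 (95% interval 0.12 to 0.88, adjusted p = 0.343), 0.38 for Smad1 (0.15 to 0.61, adjusted p = 0.188), 0.35 for Atf3 (0.047 to 0.66, adjusted p = 0.429) and -0.29 for Klf9 (-0.58 to -0.00038, adjusted p = 0.529). Between day 7 and day 1 (0.972% of all genes called), 5 factors and 1473 of all genes had an unadjusted p under 0.05 and voom called 0 of the factors. These were Cebpd at -0.56 (-1.07 to -0.061), Myc at -0.49 (-0.95 to -0.039), Jun at -0.44 (-0.8 to -0.074), Atf3 at -0.36 (-0.67 to -0.051) and Klf9 at -0.32 (-0.61 to -0.029), with adjusted p from 0.349 to 0.425. Day 7 against day 3 gave no call among all genes (0%, with 716 genes at an unadjusted p under 0.05 and 0 called by voom), and Atf3, the 1 factor with an unadjusted p under 0.05, differed by -0.71 (95% interval -1.02 to -0.41, adjusted p = 0.498).

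The libraries of day 3 stood above those of day 1 without overlap for 3 factors and below for 1 (8.64% and 6.65% of all genes), those of day 7 against day 1 for 0 and 1 (8.91% and 5.05%), and those of day 7 against day 3 for 0 and 3 (5.9% and 3.4%). These counts use unscaled RPKM. The factor lower at day 7 than at day 1 was Klf7, whose scaled values overlapped between these days.

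Mean levels peaked at different days without a tested difference between them. Atf3, Sox11, Klf6 and Smad1 had their highest mean at day 3, Jun, Klf9, Myc and Cebpd at day 1, Klf7 was nearly equal at days 1 and 3 (267 ± 20.3 and 269 ± 7.44 RPKM), and Klf4 was highest in naive ganglia. In the standardised log2 profiles over the 12 libraries, Atf3 and Sox11 were the closest pair (root mean square difference 0.21), followed by Sox11 and Klf6 (0.22).

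The spread between replicates was wider than read counting alone gives for most factors and groups, with exceptions. At day 1 the coefficient of variation of Jun was 26.8% against 2.59% from counting, and that of Atf3 15.4% against 2.11%. In naive ganglia Atf3 lay below its counting value, at 1.13% against 11.8%, as did Cebpd at 8.18% against 22.5%, while Klf4 had 14.7% against 15.1%. The 2 low factors had their widest spread in groups after injury, with 41.5% against 17.5% for Klf4 at day 1 and 39.7% against 17.7% for Cebpd at day 7. Klf4 at day 3, at 15.8% against 17.4%, stayed near its naive spread. Reads amplified without molecular identifiers are not independent molecules, so these limits cover counting error only. Within groups, 6 of the 10 factors were lowest in day 1 replicate 2 (Atf3, Jun, Klf9, Klf4, Smad1 and Myc) and 6 in day 7 replicate 1 (Atf3, Jun, Klf4, Smad1, Myc and Cebpd). The summed level of the 14 sensory neuron markers was 2290 RPKM in day 1 replicate 2, against 2740 and 3620 RPKM in its group. In day 7 replicate 1 it was 1860 RPKM, against 2980 and 2860 RPKM. Low sums were not particular to neurons. Satellite glia and myelinating Schwann cell sums were also lowest in day 1 replicate 2, at 279 and 905 RPKM. The same held in day 7 replicate 1, at 317 and 865 RPKM. Some other sums, such as those of macrophage and vessel markers (47.9 and 86.0 RPKM), were highest in day 1 replicate 2. The part of these shifts in the levels of the factors was not tested.

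**Figure D3:**
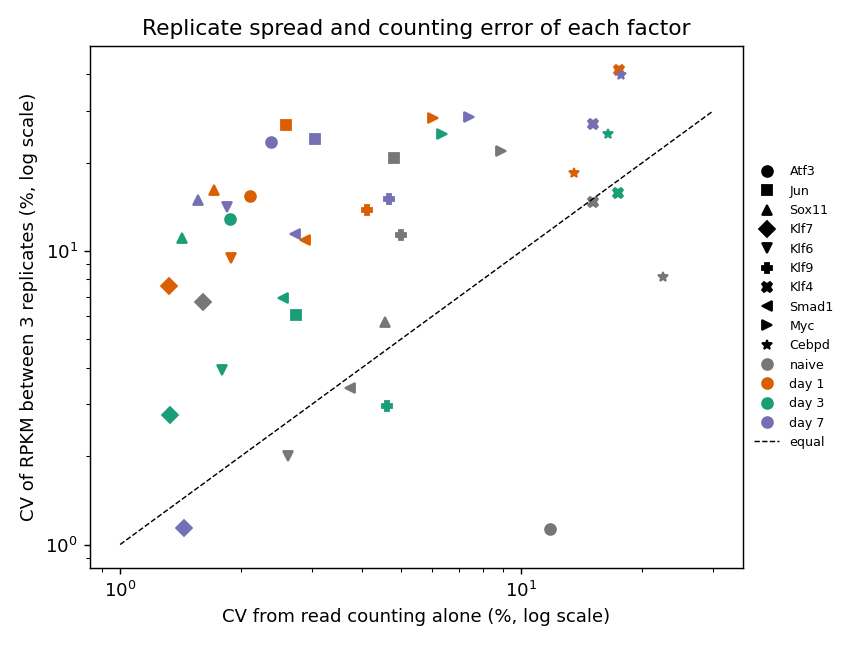
Coefficient of variation of RPKM between the 3 replicates of each group (vertical axis) against the value that counting of recovered reads alone would give (horizontal axis), both in percent on log scales; shapes are genes and colours groups. Jun at day 1 lies at 26.8% against 2.59%, far above the line of equality, and Klf4 in naive ganglia at 14.7% against 15.1% lies on it.

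Fosl2 and Crem, possible partners of Atf3 and Jun, rose after injury. Of 18 tested genes of the AP-1 and ATF/CREB families (of 24 listed), these 2 rose at each of the 3 days and none fell (3.43%, 5.67% and 2.92% of all genes were called at days 1, 3 and 7), and the median log2 fold change was 0.18, 0.087 and 0.21 at days 1, 3 and 7. Fosl2, a Fos-family partner of Jun, averaged 9.67 ± 1.17 RPKM at day 1 against 2.51 ± 0.375 RPKM in naive ganglia, which gave 1.76 on the log2 scale (SE 0.15, adjusted p = 1.78e-05), and rose by 1.32 and 1.03 at days 3 and 7. It was the 1 gene of the list that differed between day 7 and day 1. Crem, a cyclic AMP response factor, rose by 0.69, 0.61 and 0.63 at days 1, 3 and 7. Mafg, a small Maf protein, had a difference of 0.44 at day 1 that did not pass (adjusted p = 0.116), and Jdp2, a repressor that binds Jun, had 0.15 (adjusted p = 0.792). Junb stood at 0.424 RPKM or less in every library and was not tested.

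Among the genes upstream of Jun, 1 phosphatase gene passed. Of 16 tested genes of the DLK and JNK pathway and its phosphatases, 1 rose at day 1, 1 at day 3 and none at day 7, with medians of -0.025, -0.045 and -0.11; these counts are near the share of all genes called (3.43%, 5.67% and 2.92%). The gene was Dusp1, a phosphatase that dephosphorylates JNK and p38 kinases, which averaged 10.1 ± 1.8 RPKM at day 1 against 4.71 ± 0.574 RPKM in naive ganglia (log2 fold change 1.03, SE 0.17, adjusted p = 0.0025) and rose by 1.03 at day 3. Map3k12, which encodes DLK, stood at 10.0 ± 1.35 RPKM at day 1 against 9.96 ± 0.447 RPKM in naive ganglia (log2 difference 0.0066, adjusted p = 0.988). Mapk10, the neuronal JNK, and Map3k13, the DLK relative LZK, had day 3 differences of -0.33 (adjusted p = 0.0809) and -0.47 (adjusted p = 0.0965). Dusp10, another phosphatase of JNK, had 0.87 at day 1 (adjusted p = 0.066). At day 7 limma called 0 of the 16 (3 at an unadjusted p under 0.05).

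Relatives of the other factors were called in numbers near the share of all genes (3.43%, 5.67% and 2.92% at days 1, 3 and 7), so these small lists give no result about their families. Of 9 tested KLF genes other than the 4 above, 0 were called by limma at each day (2, 2 and 1 at an unadjusted p under 0.05 at days 1, 3 and 7). Klf15, a glucocorticoid target, had 0.71 at day 1 (adjusted p = 0.089), Klf10 had 0.47 at day 7 (adjusted p = 0.155), Klf5 had -0.32 at day 3 (adjusted p = 0.183) and Klf13 had 0.35 at day 1 (adjusted p = 0.184). Of 8 tested SOX genes, Sox9, a factor of glia and cartilage, rose at day 3 by 1.19 (SE 0.24, adjusted p = 0.00839), at 1.73 ± 0.355 RPKM against 0.468 ± 0.217 RPKM in naive ganglia. Sox9 passed the filter of 1 RPKM in 3 libraries through its injured libraries, which limits this call. Sox5 was higher at day 7 than at day 1, at 3.84 ± 0.44 RPKM against 1.95 ± 0.292 RPKM, while its difference from naive did not pass at either day. Sox4 and Sox12, the SoxC relatives of Sox11, reached at most 1.04 and 1.11 RPKM in any library and were not tested.

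Within the BMP pathway, the type I receptor gene Acvr1 rose beside Smad1. Of 22 tested genes of 28 listed, 1 rose at each day, and 1 fell at day 3, near the share of all genes called (3.43%, 5.67% and 2.92%), with medians of -0.059, -0.0062 and -0.0048 at days 1, 3 and 7. Acvr1 averaged 18.1 ± 1.87 RPKM at day 1, 21.2 ± 1.69 RPKM at day 3 and 17.5 ± 2.12 RPKM at day 7, against 10.5 ± 0.861 RPKM in naive ganglia, and rose by 0.76, 0.95 and 0.68 (adjusted p = 0.00171, 0.000166 and 0.00397). Bambi, a decoy receptor that dampens the pathway, fell by 1.0 at day 3 (SE 0.21, adjusted p = 0.0118), at 0.742 ± 0.21 RPKM against 1.94 ± 0.362 RPKM in naive ganglia. Its mean lay below 1 RPKM at each day after injury. Bambi thus passed the filter mainly through its naive libraries, which limits this call. Smad9 and Smad5, which act in parallel with Smad1, had day 3 differences of -0.77 (adjusted p = 0.0571) and 0.092 (adjusted p = 0.789). Bmpr1b, another type I receptor, had -0.65 at day 7 (adjusted p = 0.0857).

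The MYC network and the C/EBP family had too few tested genes for a count of calls to be read, since 3.43%, 5.67% and 2.92% of all genes were called at days 1, 3 and 7. Of 9 tested partners and antagonists of Myc, limma called 0 at each day (0, 1 and 0 at an unadjusted p under 0.05 at days 1, 3 and 7), among them Mxd4, an antagonist, at -0.61 at day 3 (adjusted p = 0.236) and Mycn at 0.36 (adjusted p = 0.366). Of 3 tested C/EBP genes limma called 0 at each day (0, 0 and 1 at an unadjusted p under 0.05), and Cebpg had 0.33 at day 7 (adjusted p = 0.235). Cebpb stood at 0.455 RPKM or less in every library and was not tested. Of 12 other transcription factors linked to regeneration, 2 rose at day 1, 2 at day 3 and 1 at day 7. Nfil3, a bZIP repressor, rose by 1.28, 1.92 and 1.62 at days 1, 3 and 7, and Stat3, the transcription factor of gp130 cytokines, rose by 0.54 and 0.46 at days 1 and 3 and had 0.19 at day 7 (adjusted p = 0.5).

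Glucocorticoid-responsive genes were tested because Klf9 and Cebpd respond to these hormones. The list was chosen with earlier results of these data known and is not independent evidence. Of its 13 genes 4 rose at day 1, 2 at day 3 and 1 at day 7, and none fell, where 2.6%, 3.72% and 2.32% of all genes rose. The 4 at day 1 were Fkbp5, Dusp1, Cdkn1a and Mt1, of which Dusp1 is also counted among the phosphatases above. The medians were 0.71, 0.1 and 0.09, against all-gene medians of -0.0055, 0.0017 and 0.0023. Fkbp5, a chaperone of the glucocorticoid receptor, averaged 8.75 ± 0.853 RPKM at day 1 against 5.58 ± 1.03 RPKM in naive ganglia (log2 fold change 0.62, SE 0.15, adjusted p = 0.0353), and was lower at days 3 and 7 than at day 1. Zbtb16 had 0.85 at day 1 (adjusted p = 0.0725) and was lower at day 3 than at day 1. Cdkn1a, a cell cycle inhibitor also controlled by p53, rose by 0.96, 1.66 and 1.21 at days 1, 3 and 7.

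Most effector genes of the growth and injury programme rose. This list was written with earlier results of these data known and is not independent evidence. Of 26 tested genes 17 rose at day 1, 23 at day 3 and 20 at day 7, and none fell (2.6%, 3.72% and 2.32% of all genes rose), with median log2 fold changes of 1.85, 2.48 and 2.22. The smallest p-values of the test of all groups belonged to Sez6l, Lmo7, Csf1 and Sema6a. Lmo7 rose by 1.88, 3.01 and 2.74 and the semaphorin Sema6a by 2.68, 2.92 and 2.5 at days 1, 3 and 7. At day 3, 7 of these genes, among them Sez6l and Lmo7, were higher than at day 1 and none was lower (0.38% and 0.127% of all genes). At day 7, 7 were higher than at day 1 and 1, Adcyap1, was lower (0.613% and 0.359% of all genes).

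**Figure D4:**
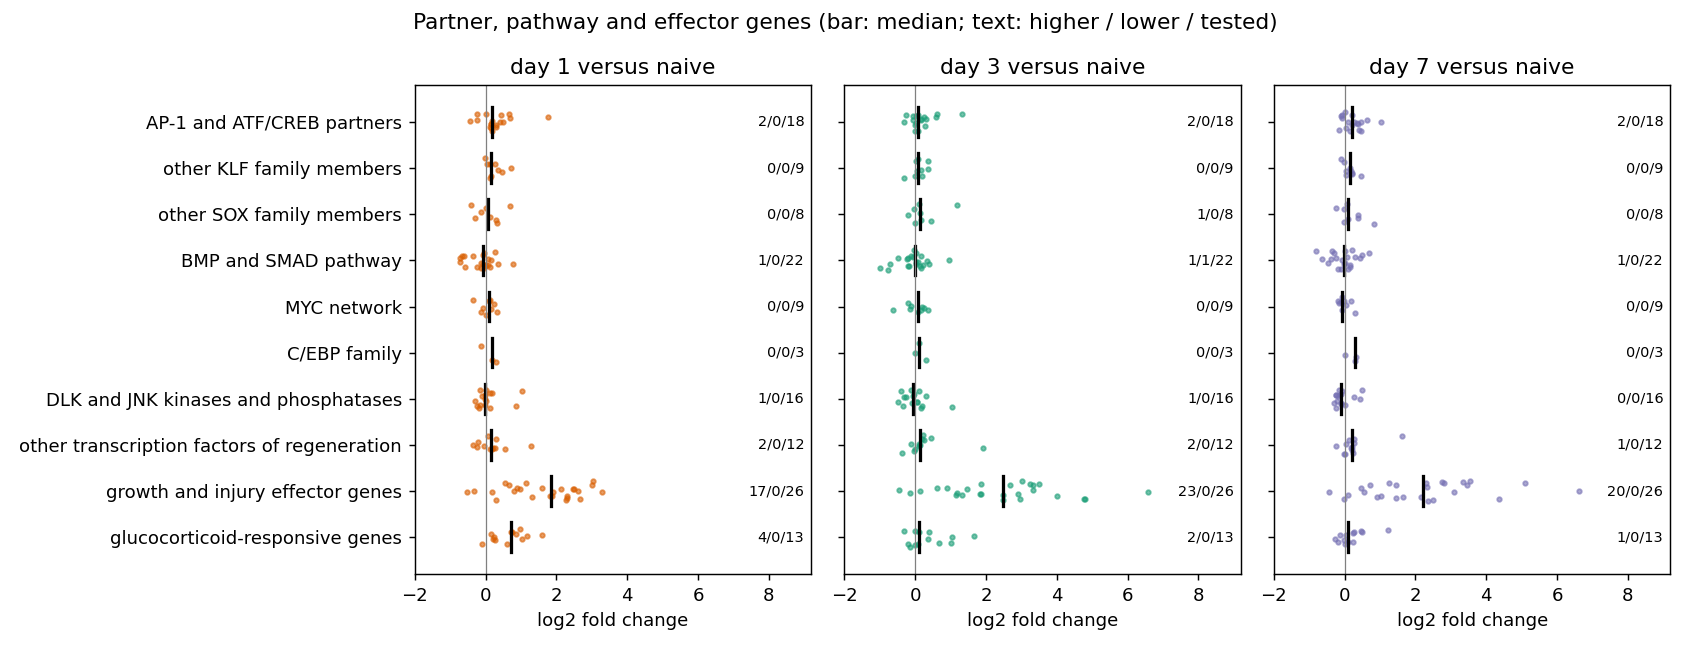
Log2 fold change over naive (horizontal axes) of the tested genes of each list at days 1, 3 and 7; each point is a gene, the bar is the median, and the text gives the numbers called higher, called lower and tested. The effector genes have medians of 1.85, 2.48 and 2.22, while those of the AP-1 and ATF/CREB partners are 0.18, 0.087 and 0.21.

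Genes whose profile over the 12 libraries was most like that of a factor were found by the root mean square difference between standardised log2 values, which had a median of 1.35 over 13078 genes for Atf3, Jun and Sox11. The closest to Atf3 were Flrt3 (0.12), Adam8 (0.13), Sema6a (0.14) and Rnf122 (0.14), and the closest to Sox11 were Sema6a (0.13), Rhoq (0.14), Flrt3 (0.16) and Adam8 (0.18). Gadd45a, a stress gene of growth arrest, came closest to Jun at 0.15, followed by Slc2a1 (0.19), Vgf (0.21) and Tifa (0.22). Flrt3 averaged 61.5, 71.1 and 56.5 RPKM at days 1, 3 and 7 against 12.2 RPKM in naive ganglia, and Gadd45a 51.1, 48.8 and 32.0 RPKM against 5.75 RPKM. For Klf9 the nearest were more distant: Col16a1 at 0.39, Dnmt1 and Setmar at 0.46 and Rbm12 at 0.48.

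Markers of other cells were set beside these values, since several factors are also expressed outside neurons. Of 12 tested macrophage markers (of 14 listed) none was called at day 1 by limma (1 at an unadjusted p under 0.05), with a summed level of 44.8 to 47.9 RPKM against 40.7 to 56.7 RPKM in naive ganglia. At days 3 and 7, 6 of the 12 rose, and the sums were 74.9 to 120 RPKM and 75.6 to 148 RPKM. Over all genes, 3.43%, 5.67% and 2.92% were called at days 1, 3 and 7. C1qa was the 1 macrophage marker at 0 in every naive library. Satellite glia had 1 of 8 markers called at day 1 and 1 at day 3 (Glul, higher), with sums of 279 to 531 RPKM in the injured groups and 355 to 505 RPKM in naive ganglia. Myelinating Schwann cell markers gave 0 calls among 8 at each day (0 at an unadjusted p under 0.05) and vessel markers 0 of 9 (1, 0 and 1 at an unadjusted p under 0.05), and 1 of 6 fibroblast markers, Col3a1, fell at day 1. Single calls in lists this small give no result about a cell type. Elavl3 rose at days 1 and 3 and Nefh fell at day 7 among the 14 sensory neuron markers. Of the 14, limma gave 2, 5 and 8 an unadjusted p under 0.05 at days 1, 3 and 7. The median log2 fold change of the 14 was -0.16, -0.25 and -0.29 at these days. The part of these cells in the levels of the 10 factors was not tested.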

How the data were processed

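RNA-seq of 12 dorsal root ganglion libraries was used, 3 for each of 4 groups read from the titles. Low-input RNA was amplified (Nugen Ovation) before TruSeq Nano library preparation, per the labels' protocols. The tools named per the submitters' processing notes are limma, edgeR, HTSeq, STAR and bcl2fastq 2.17, with build mm10 and no roles; how reads were counted, and on which annotation, is not given in the sources used here. Values as deposited by the authors carry no unit and were read as RPKM. The steps between values gave whole reads (tolerance 0.05 reads) for 91.5% of detected genes. Only genes above 0 in at least 3 libraries were tried, and 19758 of these 19765 gave whole reads. Genes seen in few libraries give them easily, so that share is weak evidence for the unit. Implied gene lengths were whole for 99.96% of 2799 genes checked.

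Genes with at least 1 RPKM in at least 3 libraries were kept (14195). Libraries were scaled by unweighted trimmed means of log ratios (factors 0.909 to 1.09), and log2(RPKM + 0.5) was fitted with limma 3.58.1 in R 4.3.3 (statmod 1.5.0), with 4 group means, 8 residual degrees of freedom, a variance trend and robust moderation. Printed RPKM are unscaled, while fold changes use scaled values and understate those of low genes. All tests were two-sided, adjusted by Benjamini-Hochberg across the 14195 genes, with a threshold of 0.05; no permutation test was used, since 3 libraries against 3 allow no exact p below 0.1. The procedure was also run on simulated reads with the same spread setting for all genes and no library effects beyond size. That run does not cover such effects in these libraries. The 10 members and all lists were chosen with earlier results of these data known. Named from each list were up to 4 genes with the smallest F test p and 7 fixed relatives where tested; a few further genes were named after their values were seen. Alternatives covered pseudocount, filter, scaling, replicate block, array weights, voom on recovered reads, 2-group fits and left-out libraries.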

Additional observations from a re-analysis of the deposited data

How the results depend on the processing

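Atf3, Jun, Sox11, Klf6 and Smad1 kept their call over naive at days 1, 3 and 7 in all 23 alternatives, except Klf6 at day 7 without the 2 libraries richest in muscle transcripts. Over all factors and comparisons 1261 values kept direction and call, 55 lost and 1 gained a call, and 19 changed sign, none of them called. The count of factors called at day 1 was 5 without those 2 libraries (Klf7, Myc and Cebpd lost, adjusted p = 0.216, 0.0572 and 0.131) and 5 to 8 with 1 library left out. With array weights 9 factors passed the test of all groups. That setting also called 1844 of all genes at day 1, in place of 487. Its share of all genes in the test of all groups is not given here. One library left out gave 5 to 7 at day 3, 5 at day 7, 0 between days and 5 to 6 over all groups.

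Signs changed for Klf7 between days 3 and 1 without scaling (0.012), for Klf4 with array weights at day 7 (0.031) and between days 3 and 1 (-0.049), for Klf6 between days 7 and 1 with array weights (-0.08) and without the 2 muscle-rich libraries (-0.02), and for Klf9 between days 7 and 3 without those (0.057). With 1 library left out, day 3 minus day 1 ran from -0.28 to 0.047 for Jun, -0.1 to 0.051 for Klf7, -0.14 to 0.18 for Klf4 and -0.3 to 0.038 for Myc. Day 7 minus day 1 ran from -0.089 to 0.21 for Klf6, day 7 minus day 3 from -0.24 to 0.051 for Klf6, -0.089 to 0.057 for Klf9 and -0.31 to 0.0028 for Cebpd, and Klf4 at day 7 from -0.1 to 0.045 over naive. Klf4 had no value in 5 alternatives for day 7 against naive and in 6 for its other comparisons, mostly because it fell below the filter. The cause of these changes was not tested.

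The labels number replicates 1 to 3 in each group, but same-numbered libraries did not deviate together: 3 of 18 pairs had a correlation of deviations over 0.1, and 4 of 12 libraries correlated best with their own number. With the replicate block 6, 6 and 5 factors were called at days 1, 3 and 7 and 5 over all groups, Klf7 and Cebpd being lost at day 1 (adjusted p = 0.0872 and 0.087) and Klf7 at day 3 (0.0745).

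All genes called over naive numbered 487, 805 and 415 at days 1, 3 and 7, with ranges of 218 to 1844, 449 to 1954 and 166 to 831 over the alternatives. The highest count came with array weights at each of these days. Between days they numbered 72 (13 to 349) for day 3 against day 1, 138 (38 to 293) for day 7 against day 1 and 0 (0 to 3) for day 7 against day 3. Without scaling, higher genes made up 87.9% of calls for day 3 against day 1 and 73.4% for day 7 against day 1, in place of 75% and 63%. With array weights they made up 56.2%, 55.6% and 61.1% of calls over naive at days 1, 3 and 7, in place of 75.8%, 65.6% and 79.5%. Depth limits Klf4 and Cebpd, with 15 to 60 reads per library.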

Other observations

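Several relatives of the factors stayed below the expression filter and were left out of every comparison. Junb stood at 0.149 to 0.424 RPKM at day 1, against 0 to 0.107 RPKM in naive libraries, and Cebpb at 0.226 to 0.455 RPKM against 0.13 to 0.157 RPKM. Smad7, an inhibitory SMAD, ranged from 0.293 to 0.466 RPKM at day 1 and from 0.189 to 0.341 RPKM in naive libraries. Sox7, a vascular factor, ranged from 0.813 to 1.34 RPKM at day 3 and from 0.849 to 1.06 RPKM at day 7, against 0.219 to 0.278 RPKM in naive libraries. Fosl1 and Fosb did not exceed 0.297 RPKM in any library. Sox14 and Sox21 were listed at 0 throughout. These genes were chosen after their values were seen and were not tested.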
